A study of Mus musculus with 2 samples.

Results

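The T-box transcription factors of trunk mesoderm described here are Tbx1, Tbx2, Tbx3, Tbx4, Tbx5, Tbx15 and Tbx20, 7 of the 31053 genes listed for the single-cell libraries of the aorta-gonad-mesonephros (AGM) region. The genes were chosen by family and name, not by a level or ratio, though with earlier results of these libraries known, and all 7 had UMIs (unique molecular identifiers, 1 per captured transcript) in kept cells of both libraries. The AGM, the part of the mid-gestation trunk around the dorsal aorta, was taken whole from mouse embryos of embryonic day 11 and measured as 1 WT library (PDGFRB +/+) and 1 KO library (PDGFRB -/-), with PDGFRβ deleted in all cells from the start of development. The KO line was kept as heterozygotes on a C57BL/6J background, and how many embryos entered each library was not given in the sources used here. Both libraries were made by 10x Chromium single-cell sequencing with cells loaded for a recovery of 7000, and no treatment was given. With 1 library per genotype there was no test: intervals in parentheses are exact 95% intervals that cover counting error only and leave out the variation between embryos. Those of levels and ratios take each UMI as a separate count, so they leave out the variation between cells as well.

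T-box factors bind DNA through a conserved domain first described in Brachyury, and many act in a dose-dependent way, so that loss of a single copy gives a malformation. In the trunk and its appendages Tbx5 and Tbx4 act in forelimb and hindlimb outgrowth, Tbx2 and Tbx3 are mostly repressors that set borders in limb, heart and body wall, Tbx1 acts in pharyngeal and cranial mesoderm, Tbx15 in dermis, muscle and skeleton, and Tbx20 in heart and motor neurons. Tbx2 and Tbx4 are neighbours, as are Tbx3 and Tbx5, a layout that dates from a duplication of an ancestral pair. On GRCm38, Tbx2 (chromosome 11, 85832551 to 85841948) and Tbx4 (85886422 to 85916097) lay 44473 bases apart, and Tbx3 (chromosome 5, 119670669 to 119684724) and Tbx5 (119832668 to 119885219) lay 147943 bases apart. Tbx1 lies on chromosome 16 (18580979 to 18590671), Tbx15 on chromosome 3 (99240381 to 99354259) and Tbx20 on chromosome 9 (24718138 to 24774303).

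Barcodes with at least 2000 UMIs and under 10% mitochondrial UMIs were kept, 8253 in WT (median 13321 UMIs) and 8165 in KO (median 12391 UMIs), of which 20 barcodes occurred in both. The libraries stood apart in sex: Xist was at 793 CPM (a gene's UMIs divided by all UMIs of the same cells, per 1000000) in WT and 0.415 CPM in KO, and Ddx3y at 0.00666 and 56.7 CPM, so that genotype, sex and library cannot be told apart. Pdgfrb was at 43.1 CPM in WT against 7.09 CPM in KO. Each cell was placed in a class by counts of marker genes, none of them a T-box gene, and 13 of 15 classes held at least 50 cells in both libraries. Gated mesenchyme, cells with UMIs of at least 3 of Col1a1, Col1a2, Col3a1, Pdgfra, Prrx1 and Twist1 that passed no gate of another lineage, held 5057 WT and 5316 KO cells, split into mural, sclerotome, splanchnic, urogenital, body wall, gastro-splenic and other mesenchyme. The classes used that had a check gene outside their gate held it above its level in all cells in both libraries, least so for Actg2 in splanchnic cells (86.8 against 70.1 CPM in WT) and Osr1 in KO urogenital cells (48.5 against 35.9 CPM). The mix of classes differed between libraries: sclerotome held 838 WT and 1485 KO cells, body wall 1127 and 796, and gastro-splenic cells numbered 180 and 1. Erythroid cells, which should lack these factors, gave the background from free RNA, at most 5.70 CPM in WT and 8.61 CPM in KO, both for Tbx3.

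Over all kept cells, Tbx3 had 7639 UMIs in WT and 6849 in KO, Tbx2 had 4250 and 3955, Tbx1 2695 and 2269, Tbx4 2067 and 1107, Tbx5 1308 and 1356, Tbx20 1264 and 379, and Tbx15 203 and 620. A UMI counts 1 transcript whatever its length, so these numbers were not scaled by gene length. The class with the highest level was the same in WT and KO for 6 of the 7 genes, the exception being Tbx15.

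**Figure D1:**
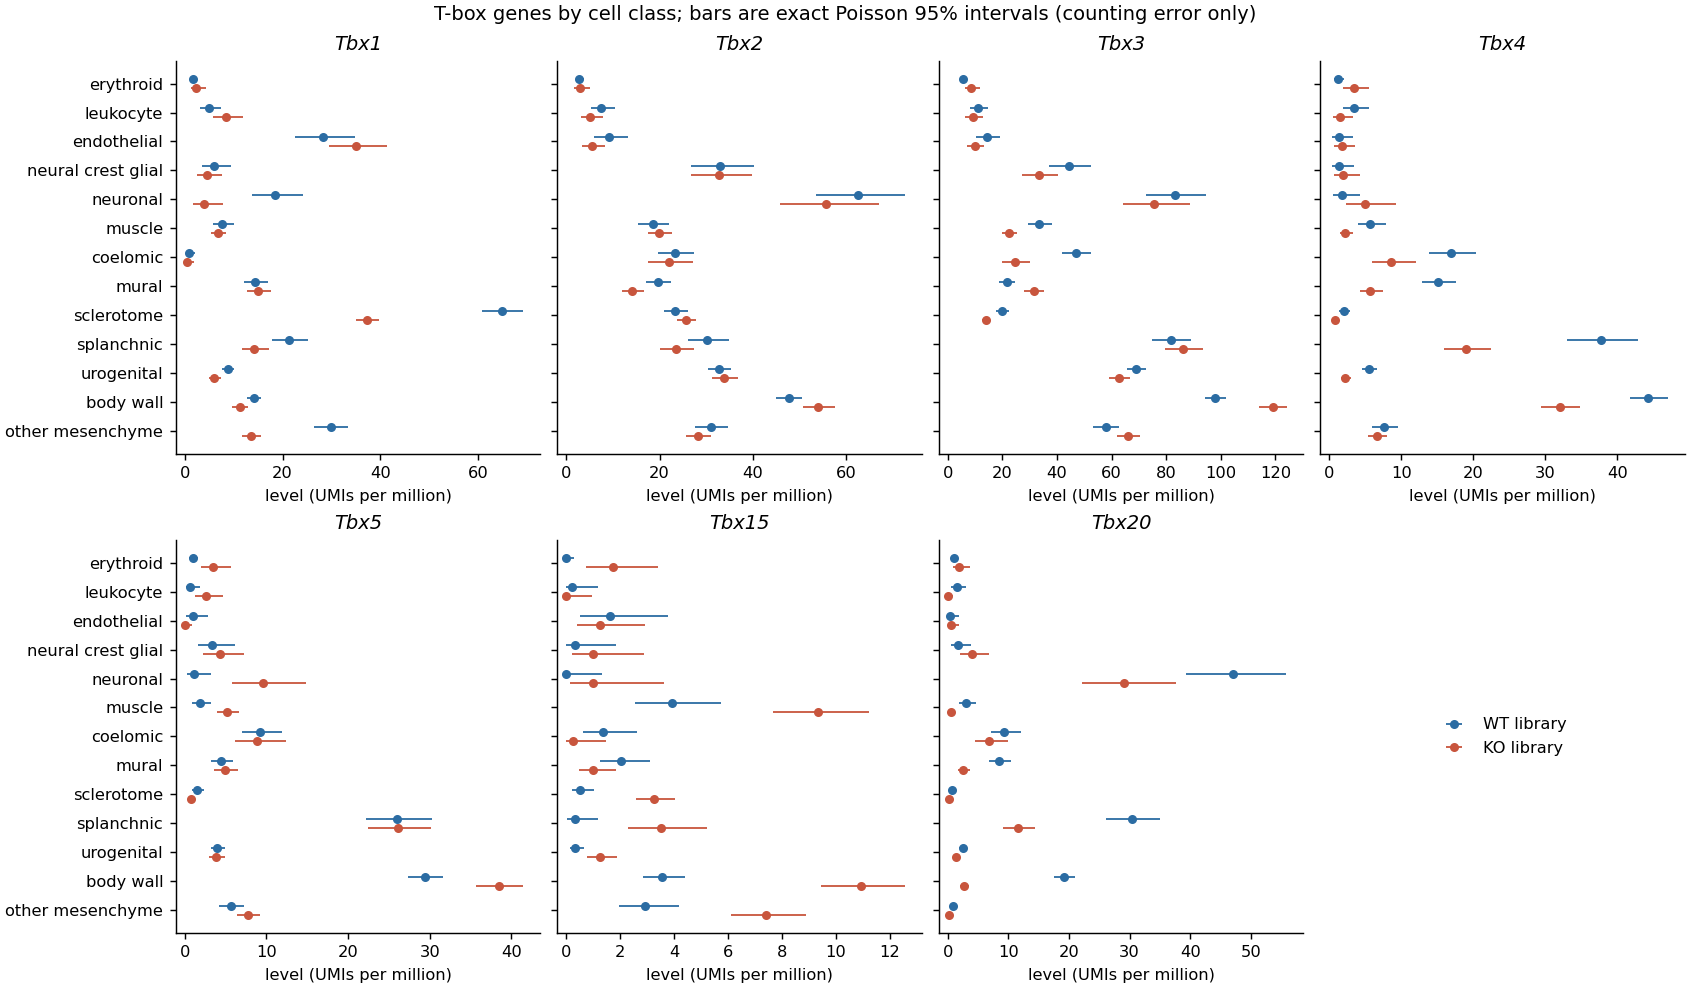
Level of each T-box gene (x axis, UMIs per 1000000) in 13 cell classes (y axis) of the WT (blue) and KO (red) library, with exact Poisson 95% intervals that cover counting error only. Tbx1 is highest in sclerotome, Tbx4 and Tbx5 in body wall and splanchnic cells, and Tbx20 in neuronal and splanchnic cells.

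Tbx1 was a gene of the sclerotome, the part of the somite that forms vertebrae and ribs. Its level there was 64.9 CPM (60.7 to 69.3) in WT, against 37.4 CPM (35.0 to 39.8) in KO, and sclerotome cells held 40.3% of the Tbx1 UMIs of WT mesenchyme with 14.6% of all its UMIs. In WT the next classes were other mesenchyme at 29.8 CPM and endothelial cells at 28.2 CPM, which did not differ beyond counting error. In KO endothelial cells followed at 35.0 CPM (29.4 to 41.3), an interval that overlapped that of the sclerotome. Coelomic cells were lowest, at 0.921 and 0.523 CPM. Among 13832 genes with at least 200 UMIs, the 3 whose levels over 13 classes and both libraries (26 points, Pearson r of log2(CPM + 1)) were most like Tbx1 were Mecom, a zinc finger factor, at 0.88, Ebf1 at 0.80 and Tox at 0.79. These points share 2 libraries and 1 scaling, and the correlation is a description. Gate genes, Xist, Tsix and Y-linked genes were left out of the genes compared.

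Tbx2 and Tbx3 were the most widely expressed members. Tbx3 was highest in body wall cells, at 97.9 CPM (94.1 to 101.9) in WT against 119 CPM in KO. Neuronal cells (83.2 and 75.7 CPM) and splanchnic cells (81.8 and 86.3 CPM) followed, and the intervals of the neuronal and splanchnic levels overlapped in each library. Tbx2 was highest in neuronal cells, at 62.6 and 55.6 CPM, and then in body wall cells, at 47.7 and 54.0 CPM, with intervals that overlapped in KO and not in WT. Of the 6 mesenchymal classes compared, the sclerotome held the least Tbx3 (19.96 and 14.1 CPM), while Tbx2 was at 23.3 and 25.7 CPM there, above its level in mural cells (19.6 and 14.1 CPM). In WT, mural cells were close to the sclerotome in Tbx3 (21.6 CPM), and the Tbx2 intervals of these classes overlapped. Sclerotome cells were also split by Uncx, a homeobox gene of the posterior part of each somite. In WT sclerotome cells with a Uncx UMI, Tbx2 was at 31.9 CPM against 8.86 CPM in those without, and Tbx3 was at 26.5 against 8.86 CPM. In KO the values for Tbx2 were 35.1 and 11.8 CPM, but those for Tbx3 were 14.8 and 13.1 CPM. Tbx3 was thus higher beside Uncx in WT, while in KO both sides were close. The split was chosen after the values were seen. Over classes, Tbx2 and Tbx3 correlated with each other at 0.89, more than either did with its neighbour on the chromosome (0.40 for Tbx2 and Tbx4, 0.73 for Tbx3 and Tbx5). The gene most like Tbx2 was Msi1, an RNA-binding protein of neural progenitors (0.96).

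Tbx4 and Tbx5, the limb pair, shared their classes although they lie on different chromosomes. Body wall cells led, with Tbx4 at 44.3 CPM in WT against 32.0 CPM in KO and Tbx5 at 29.4 and 38.5 CPM, followed by splanchnic cells, with Tbx4 at 37.7 and 19.0 CPM and Tbx5 at 26.0 and 26.1 CPM. Together these classes held 60.2% (body wall) and 12.9% (splanchnic) of the Tbx4 UMIs of WT mesenchyme, and 61.8% and 13.8% of those of Tbx5. Of all UMIs of WT mesenchyme, body wall cells held 25.8% and splanchnic cells 6.51%. Tbx4 and Tbx5 correlated at 0.86 over the 26 points, and each was among the 3 genes most like the other. Hoxd13, a Hox gene of the posterior end and limb buds, was also among those most like Tbx5 (0.86). In sclerotome both were at or near background, at 2.003 and 0.835 CPM for Tbx4 and 1.502 and 0.755 CPM for Tbx5.

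Tbx15 was the rarest member in WT, while in KO Tbx20 was. In WT Tbx15 was highest in muscle at 3.91 CPM (26 UMIs), body wall at 3.56 CPM (88 UMIs) and other mesenchyme at 2.91 CPM (29 UMIs), 3 levels whose intervals overlapped, and in KO body wall led at 10.9 CPM, with muscle at 9.33 CPM and other mesenchyme at 7.42 CPM. The gene most like it was Sim1, a factor of the lateral dermomyotome (0.84), followed by En1, a homeobox gene of central dermomyotome and dermis (0.78). Cells with a Sim1 UMI made up 1.84% of WT mesenchyme (93 cells) and held 66 of its 156 Tbx15 UMIs, at 23.7 CPM against 0.968 CPM in the other cells. In KO, 110 such cells held 111 of 462 Tbx15 UMIs, at 43.2 against 3.75 CPM. Sim1 was picked as like Tbx15 over points that include these cells, and the split was added after other values were seen.

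Tbx20 was highest in neuronal cells, at 47.0 CPM in WT against 29.1 CPM in KO, followed by splanchnic cells at 30.3 and 11.6 CPM. Body wall cells were at 19.2 CPM in WT but 2.67 CPM in KO, and sclerotome, other mesenchyme and endothelial cells were at 0.803 CPM or below in both. The genes most like Tbx20 were Hand1 (0.91) and Hand2 (0.85), basic helix-loop-helix factors of heart and lateral mesoderm, with the transcript Gm8773 between them (0.89). In WT body wall, all 473 Tbx20 UMIs lay in the 749 cells with a UMI of Pitx1, a homeobox gene of hindlimb and posterior ventral mesoderm, and 0 in the 378 cells without, which allows up to 0.379 CPM. In WT splanchnic cells, 182 of 189 Tbx20 UMIs lay in cells with a UMI of the ligand gene Wnt2, and in KO all 82 did. Pitx1 and Wnt2 are gate genes of these classes, and the splits were chosen after the values were seen.

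Of the 7 genes, RefSeq promoter windows of GRCm38.p6 were at hand for 3, Tbx1 (with 2 starts), Tbx4 and Tbx20, while Tbx2, Tbx3, Tbx5 and Tbx15 had none in the table used. The 250 bases before the RefSeq start are shown for Tbx20 (chr9:24774304-24774553, minus strand) and Tbx4 (chr11:85896515-85896764, plus strand), a pair that met in the same cells and had lower levels in KO mesenchyme, as the results on single cells and on KO give. The Tbx4 window lies inside the annotated gene, since its RefSeq start is downstream of the annotated 5′ end. The T half-site AGGTGTGA, searched on both strands of the 300-base windows, would stand in capitals and had no match in these or in the windows of Tbx1, where 1.28% of all 32851 windows held it. No match says only that these letters are not in these windows. Of the bases printed, 68.8% were G or C for Tbx20 and 58.4% for Tbx4, where the median over the same 250 bases of all promoters was 52.4%.
Tbx20: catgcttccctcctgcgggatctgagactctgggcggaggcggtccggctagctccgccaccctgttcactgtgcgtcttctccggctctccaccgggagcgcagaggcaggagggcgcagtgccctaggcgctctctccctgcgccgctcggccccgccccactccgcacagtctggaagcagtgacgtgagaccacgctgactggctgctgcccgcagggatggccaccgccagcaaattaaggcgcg
Tbx4: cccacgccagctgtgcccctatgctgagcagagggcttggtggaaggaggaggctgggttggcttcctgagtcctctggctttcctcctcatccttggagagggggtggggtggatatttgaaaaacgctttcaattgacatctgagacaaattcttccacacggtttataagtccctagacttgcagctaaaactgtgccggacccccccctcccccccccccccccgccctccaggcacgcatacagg

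Within single mesenchymal cells, Tbx4 and Tbx5 were each higher where the other had a UMI. In WT, Tbx4 was at 62.1 CPM in the 594 cells with a Tbx5 UMI and 9.86 CPM in the rest, a log2 difference of 2.65 (2.52 to 2.79), and in KO at 50.6 and 3.75 CPM, a difference of 3.75 (3.56 to 3.95). The pair also went together inside a class, with log2 differences of 1.41 in WT body wall, 1.58 in WT splanchnic and 3.02 in WT urogenital cells. Tbx2 was at 50.2 CPM in WT cells with a Tbx3 UMI and 17.6 CPM in the rest, and in KO at 53.0 and 17.4 CPM. Tbx20 and Tbx4 met in 214 WT and 54 KO cells, and Tbx20 was at 24.7 CPM in WT cells with a Tbx4 UMI against 4.804 CPM in the rest, and in KO at 8.59 against 0.982 CPM. Doublets were not called, and cells with a UMI of a member were deeper than the rest (median 21322.5 against 13211 UMIs for Tbx5 in WT), and depth bears on which cells count as having a UMI.

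Tbx1 stood apart from the other members. It was at 6.10 CPM in WT mesenchymal cells with a Tbx2 UMI against 35.1 CPM in the rest, and at 5.31 against 39.9 CPM for Tbx3 and 3.46 against 29.3 CPM for Tbx4. The KO values were 4.44 and 25.6 CPM for Tbx2, 4.91 and 27.7 CPM for Tbx3, and 1.58 and 21.3 CPM for Tbx4. The opposition held inside the sclerotome, where Tbx1 was at 12.97 CPM in WT cells with a Tbx2 UMI and 81.5 CPM in those without, and at 12.7 and 44.4 CPM in KO. KO mural cells were an exception, with Tbx1 at 23.2 CPM in the 20 cells with a Tbx20 UMI and 14.1 CPM in the others. In body wall cells split by a Tbx3 UMI, Tbx1 was at 2.84 and 33.0 CPM in WT and 3.52 and 25.5 CPM in KO. Tbx3 and Tbx20 did not relate alike in the 2 libraries. In WT, Tbx3 was at 47.3 CPM in mesenchymal cells with a Tbx20 UMI and 64.3 CPM in the others (-0.44), and in body wall cells at 51.8 and 112 CPM (-1.12). In KO, Tbx3 was at 75.2 and 58.9 CPM over mesenchyme (0.35, 0.17 to 0.53), and in body wall cells at 110.1 and 119 CPM (-0.12, -0.44 to 0.19).

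**Figure D2:**
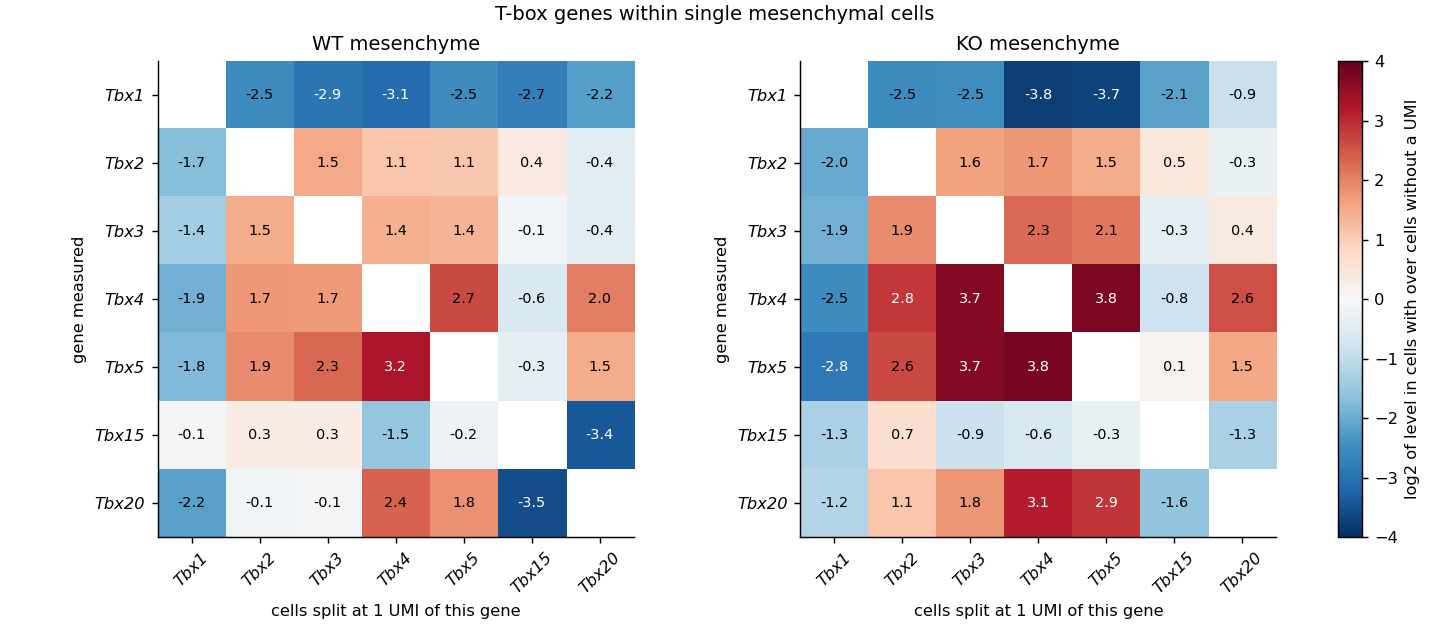
For WT (left) and KO (right) mesenchymal cells, the log2 of the level of the gene in the row in cells with over cells without a UMI of the gene in the column, red where higher and blue where lower. Tbx4 and Tbx5 are higher in each other's cells (2.65 for Tbx4 in WT), and the whole Tbx1 row is below 0 in both libraries.

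Hox genes, which mark position along the trunk, differed among the cells that held each member. Hox groups 9 to 13 made up 39.8% of the UMIs of Hox groups 4 to 13 in all WT mesenchyme, 66.9% in cells with a Tbx4 UMI and 64.9% in cells with a Tbx5 UMI, but 34.2% in cells with a Tbx1 UMI and 29.0% in the 94 cells with a Tbx15 UMI. Hox group 13 was at 116 CPM in WT cells with a Tbx4 UMI and 120 CPM with a Tbx5 UMI, against 51.3 CPM in all mesenchyme and 20.1 CPM with a Tbx1 UMI. Cells with a Tbx20 UMI were between, at 52.2% and 48.3 CPM. In KO the shares were 75.7% for Tbx4, 65.7% for Tbx5 and 37.8% for Tbx1, but the share for Tbx15 was 44.2%, above the 41.3% of all KO mesenchyme. Sums over these groups were chosen after the other values were seen.

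**Figure D3:**
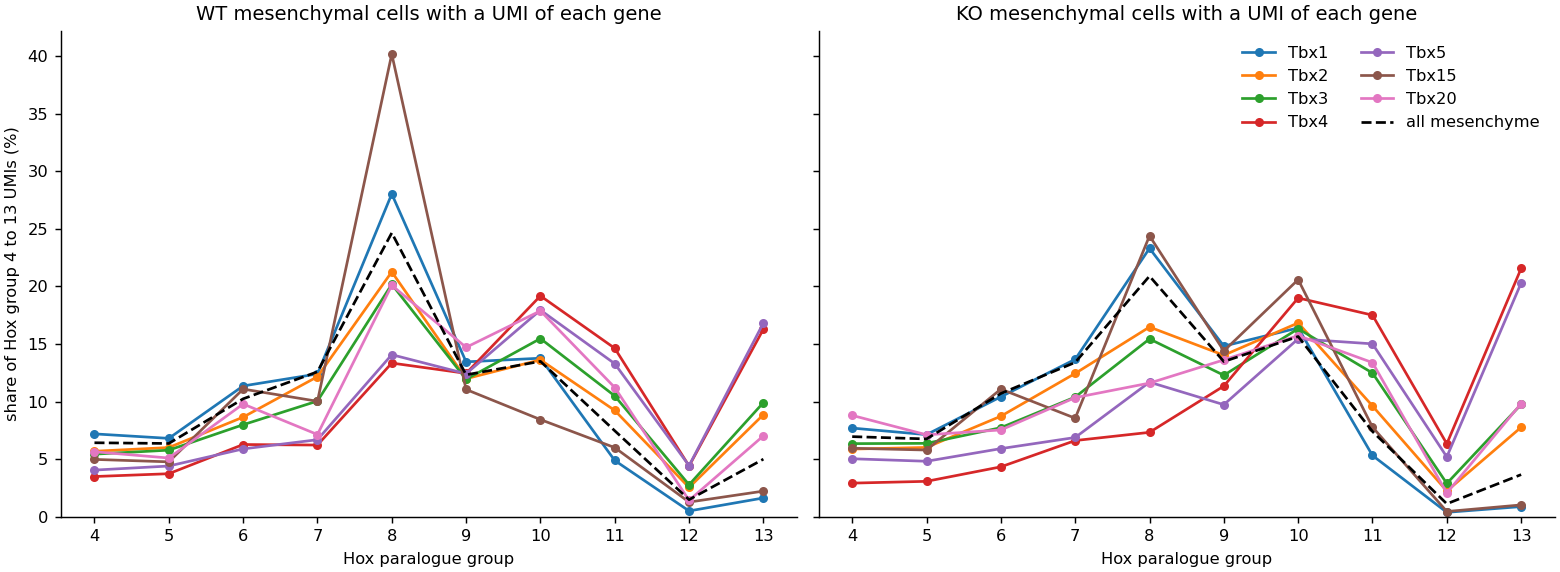
Share of the UMIs of Hox groups 4 to 13 (y axis, percent) in each paralogue group (x axis) for mesenchymal cells with a UMI of each T-box gene, in WT (left) and KO (right), with all mesenchyme as a dashed line. Cells with Tbx4 or Tbx5 stand above the dashed line at groups 11 to 13, and cells with Tbx1 below it.

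The study separated stroma by PDGFRβ and NG2 (Cspg4), through protein staining and sorting and, in its single-cell data, clusters and markers. Here WT mesenchyme was gated on RNA at 1 UMI of each gene. This gave 386 DP (both genes), 2070 PDGFRβ-S (Pdgfrb only), 216 NG2-S (Cspg4 only) and 2385 DN (neither) cells. A cell whose transcripts were not captured counts as negative at this gate, so these groups are not those of the study. Tbx20 was at 15.1 CPM (13.03 to 17.4) in DP, 10.97 CPM in PDGFRβ-S, 4.49 CPM in NG2-S and 5.10 CPM in DN cells. Tbx3 was highest in PDGFRβ-S at 79.2 CPM and was at 31.0 CPM in DP, and Tbx4 was at 24.1 and 18.1 CPM, Tbx5 at 16.2 and 8.79 CPM. Tbx1 was the member highest in NG2-S, at 34.8 CPM (29.1 to 41.3), against 21.2 CPM in PDGFRβ-S. Between all cells with and all cells without a Pdgfrb UMI, 1 of 7 members was higher by 2-fold or more, where 1.68% of all genes tested were: Tbx20, at 11.8 against 5.04 CPM, a log2 difference of 1.23 (1.00 to 1.47). Tbx4 (0.84) and Tbx5 (0.77) were under 2-fold, and Tbx1 was lower (-0.28, -0.40 to -0.16). Within classes Tbx1 was higher in cells with a Pdgfrb UMI in sclerotome (0.43, 0.24 to 0.62) and urogenital cells (0.76, 0.26 to 1.30), and below 5% mt- UMIs the difference over mesenchyme was 0.13. The gates differed in depth, from a median of 11882 UMIs in DN to 23304.5 in DP cells, and with each cell thinned to 2000 UMIs the difference for Tbx20 was 0.86 (-0.23 to 1.81), which no longer passed 2-fold. For Tbx3 the difference went from 0.43 to -0.10 (-0.53 to 0.30) on thinning, with 53.5 CPM in PDGFRβ-S and 57.3 CPM in DN cells. The study named Tbx3 among genes enriched in its PDGFRβ-S cells, which it defined by clusters and markers, so the cells compared differ. The thinned intervals of Tbx4 (0.63, -0.08 to 1.28), Tbx5 (0.26, -0.70 to 1.10) and Tbx1 (-0.42, -1.08 to 0.19) included 0 as well. Within classes, chosen after seeing the data, Tbx20 differed by 1.15 in splanchnic and 0.91 in body wall cells, with intervals above 0, and by 0.93 (-0.18 to 2.29) in mural and -0.25 (-1.10 to 0.64) in urogenital cells.

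The KO library was compared with WT for the members in all kept cells, in mesenchyme and within its classes, with a difference of 2-fold or more as the call. In all kept cells 2 of 7 members passed, where 5.24% of all genes tested did, and in mesenchyme 2 of 7 passed, where 4.04% did. They were Tbx20, which was lower, and Tbx15, which was higher, in both. Within 6 mesenchymal classes, 13 of 40 pairs of member and class passed, 8 lower and 5 higher, where 5.21% of all such pairs did. These pairs came from Tbx15, Tbx20, Tbx4 and Tbx1 alone, so the same gene counts in several classes, and some rest on few UMIs. Below 5% mt- UMIs 4 of 27 pairs passed, and with cells thinned to 2000 UMIs 6 of 28, settings for which the share of all pairs was not computed. The median log2 ratio of the members in mesenchyme was -0.07, and that of all genes tested was 0.03. In sums of this kind, fewer cells with a transcript and fewer transcripts per cell cannot be told apart. The share of cells and the UMIs per cell with a UMI are therefore given for Tbx20 and Tbx15.

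Tbx20 was at 8.42 CPM in all WT cells and 2.66 CPM in all KO cells, and in mesenchyme at 9.25 CPM in WT against 1.98 CPM in KO, 4.66-fold lower with a log2 ratio of -2.22 (-2.45 to -1.99). Erythroid cells were at 0.962 CPM in WT and 1.94 CPM (0.886 to 3.68) in KO, the latter from 9 UMIs in 2 cells. That KO interval holds the KO levels of mesenchyme, body wall, mural (2.51 CPM) and urogenital cells (1.35 CPM), so these were near the free-RNA background. The share of mesenchymal cells with a Tbx20 UMI at 2000 UMIs per cell was 1.13% in WT and 0.21% in KO, against 0 of 744 WT erythroid cells, which allows up to 0.403%, and 0.459% of 218 KO erythroid cells (0.0116 to 2.53%), an interval that holds both mesenchymal shares. Over all kept cells, of every class, those with a Tbx20 UMI, 542 in WT and 165 in KO, held a mean of 2.33 and 2.30 Tbx20 UMIs. In mesenchyme alone, 410 WT cells held 885 Tbx20 UMIs and 103 KO cells held 191. In body wall 191 WT cells held 473 and 27 KO cells held 48. In both populations the UMIs per such cell were thus lower in KO. Body wall cells had the widest gap, at 19.2 CPM (473 UMIs) in WT against 2.67 CPM (48 UMIs) in KO, a log2 ratio of -2.84 (-3.30 to -2.41). Splanchnic cells (-1.39) and mural cells (-1.75) passed as well, and neuronal cells (-0.69) and urogenital cells (-0.86) did not. Relative to other genes, 6.52% of those tested passed in body wall, 7.38% in splanchnic and 4.14% in mural cells.

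The body wall and splanchnic classes differed between libraries in the share of cells with a UMI of a gate gene, counted on all UMIs. Fewer such cells and fewer gate-gene transcripts per cell cannot be told apart here. Cells with a Pitx1 UMI were 66.5% of body wall cells in WT and 48.2% in KO, and in these alone Tbx20 was at 28.2 CPM in WT against 4.99 CPM in KO, a log2 ratio of -2.50 (-2.97 to -2.06), still past 2-fold. Cells with a Wnt2 UMI were 65.0% of splanchnic cells in WT and 38.7% in KO, and in these Tbx20 was at 43.8 CPM in WT against 28.5 CPM in KO, a log2 ratio of -0.62 (-1.01 to -0.24), which did not pass. Body wall cells of KO also held less Hand1 (55.4 CPM WT, 6.46 CPM KO) and Hand2 (44.9, 19.7). Both genes were picked as like Tbx20 over points that include these levels, so a shared drop helped to select them. Wnt2 went from 80.1 to 18.6 CPM there. As a splanchnic gate gene it was barred from the genes compared for likeness, and its UMIs also bear on which cells count as body wall. Hand1 and Hand2 were also lower in KO splanchnic, mural and other mesenchymal cells. Urogenital cells did not follow: Hand1 was higher in KO (4.77 CPM WT, 16.8 CPM KO) and Hand2 close to level (35.7, 36.3). Among all mesenchymal cells with a Hand1 UMI, 602 in WT and 311 in KO, Tbx20 was at 45.8 and 5.87 CPM. The part of these markers, and of the mix of cells, in the Tbx20 difference was not tested.

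**Figure D4:**
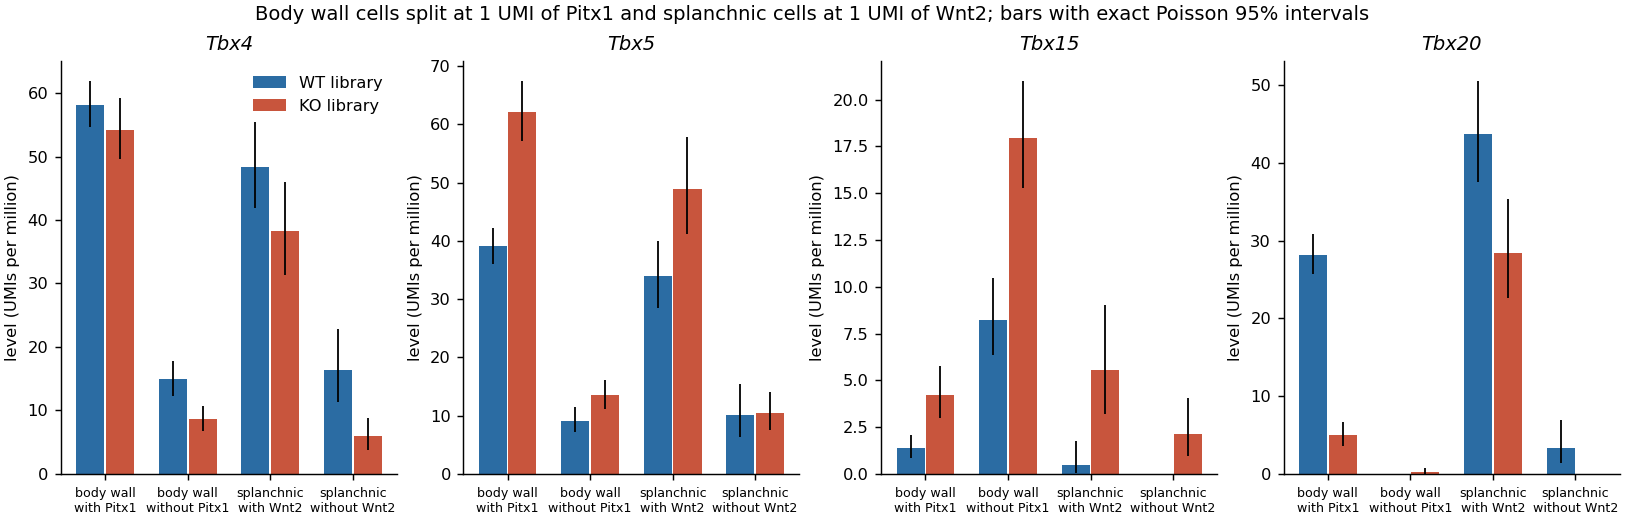
Level (y axis, UMIs per 1000000) of Tbx4, Tbx5, Tbx15 and Tbx20 in body wall cells with and without a Pitx1 UMI and splanchnic cells with and without a Wnt2 UMI, in WT (blue) and KO (red), with exact Poisson 95% intervals. Tbx20 in body wall cells with Pitx1 is 28.2 in WT and 4.99 in KO, while Tbx4 there is 58.2 and 54.2.

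Tbx4 was lower in KO mesenchyme without passing 2-fold, at 19.0 CPM in WT against 10.0 CPM in KO, a log2 ratio of -0.92 (-1.03 to -0.80). With KO cells that held a Pdgfrb UMI left out, a kind of cell that the study removed, the ratio was -1.23, past 2-fold. WT cells with a Pdgfrb UMI, which held more Tbx4 than the rest (22.8 against 12.8 CPM), stayed in, so this step compared unlike cells. It also moved Tbx5 from -0.01 to -0.28 and Tbx3 from -0.07 to -0.26, while Tbx1 went from -0.33 to -0.27. With all KO cells kept, Tbx4 passed in mural cells (15.1 and 5.72 CPM, -1.40), urogenital cells (5.56 and 2.24 CPM, -1.31, where 3.97% of all genes tested passed) and sclerotome (-1.26, where 4.96% did). The KO levels in urogenital cells and sclerotome lay below the 3.45 CPM of KO erythroid cells, which came from 16 UMIs in 4 cells. In body wall, its main class, the ratio was -0.47 (-0.62 to -0.32), and in body wall cells with a Pitx1 UMI it was -0.10 (-0.26 to 0.06), with 58.2 CPM in WT and 54.2 CPM in KO. Its partner Tbx5 did not share this: in mesenchyme it was at 12.3 CPM in WT against 12.2 CPM in KO, a log2 ratio of -0.01 (-0.13 to 0.11), and in body wall cells with a Pitx1 UMI it was at 39.0 CPM in WT against 62.2 CPM in KO (0.67, 0.51 to 0.83). In these cells Tbx5 was thus higher and Tbx20 lower in KO, and the interval of Tbx4 included 0.

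Tbx15 was at 1.63 CPM (156 UMIs) in WT mesenchyme and 4.801 CPM (462 UMIs) in KO mesenchyme, 2.95-fold higher with a log2 ratio of 1.56 (1.29 to 1.83). At 2000 UMIs per cell, 0.277% of WT and 0.959% of KO mesenchymal cells had a Tbx15 UMI, against 0 of 744 WT and 0 of 218 KO erythroid cells, which allows up to 0.403% and 1.38%. Over all kept cells, of every class, those with a Tbx15 UMI, 128 in WT and 367 in KO, held a mean of 1.59 and 1.69 Tbx15 UMIs. In mesenchyme alone, 94 WT cells held the 156 UMIs and 254 KO cells the 462. Tbx15 was higher in 5 of the 6 mesenchymal classes, by 1.62 in body wall (3.56 and 10.9 CPM), 1.35 in other mesenchyme (2.91 and 7.42 CPM, where 4.44% of all genes tested passed), 2.70 in sclerotome (7 and 82 UMIs), 3.46 in splanchnic cells (2 and 25 UMIs) and 1.93 in urogenital cells (7 and 21 UMIs), all on the log2 scale. In urogenital cells the KO level of 1.24 CPM was below the 1.72 CPM of KO erythroid cells, which came from 8 UMIs in 1 cell before thinning. Mural cells went the other way, with 21 UMIs in 8 of 433 WT cells and 10 in 6 of 369 KO cells (-1.02, -2.27 to 0.13). In muscle, outside mesenchyme, it was at 3.91 CPM in WT against 9.33 CPM in KO (1.26, 0.63 to 1.93). In mesenchymal cells with an En1 UMI, which were 6.51% in WT and 11.9% in KO, Tbx15 was at 6.87 and 14.9 CPM, and among cells without one at 1.15 and 3.14 CPM. En1 was picked as like Tbx15 over points that include these cells, and the split was added after other values were seen.

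Tbx1 was lower in KO in its main class, the sclerotome, at 64.9 CPM in WT against 37.4 CPM in KO (-0.80, -0.93 to -0.66), under 2-fold, and it passed in other mesenchyme, at 29.8 and 13.55 CPM (-1.14, -1.40 to -0.88). The ratio was alike in sclerotome cells with a Uncx UMI (-0.78) and without (-0.84). The sclerotomes differed in Hox genes, with Hox group 10 at 70.2 CPM in WT against 201 CPM in KO and group 8 at 578 and 387 CPM, and the part of axial level in the Tbx1 difference was not tested. In endothelial cells Tbx1 was at 28.2 CPM in WT against 35.0 CPM in KO (0.31, -0.09 to 0.71), a difference within counting error. Over all mesenchyme Tbx2 and Tbx3 were close to equal: Tbx2 was at 33.1 CPM in WT against 31.5 CPM in KO (-0.07, -0.14 to 0.00) and Tbx3 at 62.2 and 59.5 CPM (-0.07, -0.12 to -0.01), and neither passed 2-fold in a mesenchymal class. In body wall cells with a Pitx1 UMI both were higher in KO, Tbx3 at 97.5 and 152 CPM (0.64) and Tbx2 at 52.0 and 74.2 CPM (0.51). In splanchnic cells with a Wnt2 UMI Tbx3 was at 82.9 and 124 CPM (0.58) and Tbx2 at 33.9 and 36.5 CPM (0.11, -0.27 to 0.48). Tbx3 went the other way in body wall cells without a Pitx1 UMI (-0.23), splanchnic cells without a Wnt2 UMI (-0.39) and sclerotome cells with a Uncx UMI (-0.84). Tbx3os1, a transcript from the opposite strand that overlaps the start of Tbx3, was at 13.51 CPM in WT against 17.7 CPM in KO mesenchyme (0.39, 0.29 to 0.50).

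**Figure D5:**
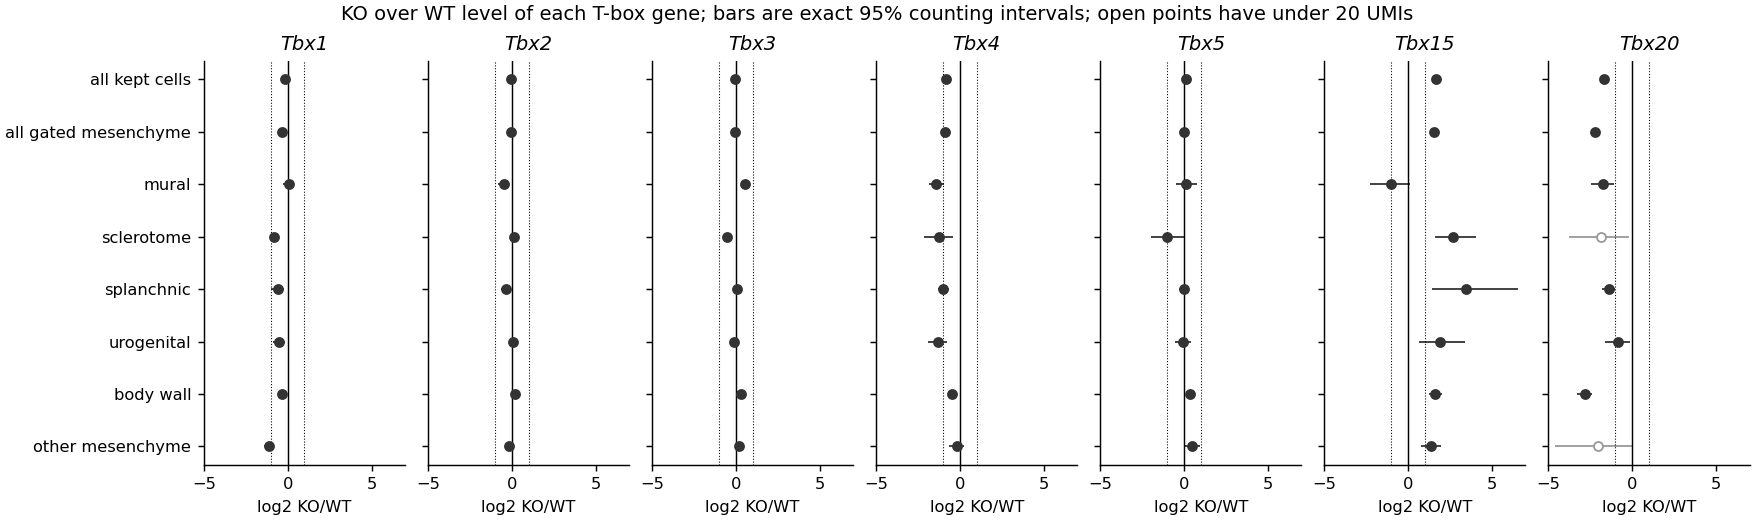
Log2 ratio of the KO over the WT level (x axis) of each T-box gene in all kept cells, all gated mesenchyme and 6 mesenchymal classes (y axis), with exact 95% counting intervals, dotted lines at 2-fold and open points for pairs under 20 UMIs. Tbx20 is left of 0 and Tbx15 right of 0 throughout, save for Tbx15 in mural cells at -1.02.

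Other T-box genes gave a frame for these values. Tbx18, a factor of ureter and somite mesenchyme, was at 20.01 CPM in WT against 17.6 CPM in KO mesenchyme (-0.18), and Mga, a broadly expressed member with a second DNA-binding domain, was at 71.8 and 83.2 CPM (0.21). T, Tbx6, Tbx10, Tbx19, Tbx21, Tbx22, Tbr1 and Eomes had at most 41 UMIs in either library. Of 26 listed partners and targets of the T-box factors in heart, limb and body wall, 22 had at least 50 UMIs in mesenchyme, 3 were lower in KO by 2-fold or more and 1 was higher, where 4.04% of all genes tested passed in either direction, with a median log2 ratio of -0.20. Among the lower genes were Nkx2-5, a cardiac and splenic homeobox gene, at 2.54 CPM in WT against 0.0208 CPM in KO (243 and 2 UMIs), and Hand1 at 24.0 and 9.62 CPM. The higher gene was Fgf8, a growth factor that patterns limb and pharynx, at 0.554 and 1.82 CPM (53 and 175 UMIs). Gata6, a zinc finger factor of heart and gut mesoderm, was under 2-fold at 97.5 and 51.1 CPM, and the growth factor gene Bmp4 was at 97.8 and 97.5 CPM. The study reported Bmp4 as significantly lower in KO, in the stromal cluster that held its PDGFRβ+ cells. It used a rank test over cells and removed KO cells with detected Pdgfrb, so both the measure and the cells differ from those here. The list was drawn up with earlier results of these libraries known, and Nkx2-5 is also a gate gene of the gastro-splenic class that KO all but lacked.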

How the data were processed

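Whole AGM regions of WT and KO mouse embryos gave 1 10x Chromium library each. Per the labels, reads were processed with Cell Ranger 3.1.0 on mm10 (GRCm38), as the submitters' processing notes give it. The authors deposited unfiltered, whole-number UMI counts of each gene and barcode, with no normalization and no cell calls. Totals were 179743201 UMIs in WT and 174597654 in KO.

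Barcodes with at least 2000 UMIs and under 10% mt- UMIs were kept. Classes came from the number of marker genes with a UMI and, within mesenchyme, from summed marker UMIs. Cells of more than 1 lineage (120 WT, 74 KO), tied cells (270, 184) and cells that passed no gate (1421, 1455) entered no class. Doublets were not called. UMIs were summed over a population, scaled to CPM, and compared as log2 KO over WT with exact conditional intervals (95%), which rest on the number of UMIs alone. A call was a ratio of 2-fold or more among genes with at least 50 UMIs in both libraries together (20 within a class), with a 0 in 1 library set to 3 counts. No test was made. Shares given at 2000 UMIs per cell were computed on cells thinned to 2000 UMIs. The shares of cells with a UMI of Pitx1, Wnt2, Sim1 or En1 were computed on all UMIs and so depend on depth. The counting interval and the 2-fold call were tested on simulated Poisson counts, and the thinning on WT cells. Such counts do not hold the variation between cells. The gates, likeness and free-RNA steps were not tested in this way. Named genes were the 7 members, a list of other T-box genes, partners past 2-fold (up to 8 in each direction), with Gata6 and Bmp4 added after their values were seen, the 3 genes most like each member, and genes of the splits. Some genes that these rules name are not reported here. Members and lists were chosen with earlier results of these data known. Alternatives covered cell filters, gates, scaling (TMM of edgeR 4.0.16, median of ratios of DESeq2 1.42.0, R 4.3.3), depth, free RNA and count minimums. Other steps used Python 3.11.15, numpy 2.4.6, scipy 1.17.1 and pandas 2.3.3. Gene positions came from GENCODE on GRCm38. No protein sequences were used here.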

Additional observations from a re-analysis of the deposited data

Results flagged for a closer look

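Tbx15 was past 2-fold in opposite directions in different mesenchymal classes. It was higher in KO by 3.46 in splanchnic, 2.70 in sclerotome, 1.93 in urogenital, 1.62 in body wall and 1.35 in other mesenchymal cells on the log2 scale, and lower in mural cells (-1.02). The difference between classes was not tested, the mural value rests on 21 and 10 UMIs, and its interval (-2.27 to 0.13) includes 0.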

How the results depend on the processing

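In all kept cells and in mesenchyme, Tbx15 and Tbx20 passed 2-fold under each alternative tried (cell filters, scalings, thinning, free RNA and, for mesenchyme, gates and KO classes weighted to the WT mix). Count minimums of 1 and 200 UMIs could not change these results, since every member had more UMIs than either minimum. Tbx4 joined Tbx15 and Tbx20 (3 of 7) once KO cells with a Pdgfrb UMI were left out. There were 801 such cells among the kept KO cells, and WT cells with a Pdgfrb UMI stayed in, so this step compared unlike cells. The study removed KO cells with detected Pdgfrb before its own comparisons. The log2 ratio in mesenchyme ran from -2.59 to -2.05 for Tbx20, 1.05 to 1.82 for Tbx15 and -1.23 to -0.54 for Tbx4, and neither Tbx15 nor Tbx20 turned direction, while Tbx2, Tbx3 and Tbx5, all near 0, took both signs (Tbx5 -0.34 to 0.42). Below 5% mt- UMIs, which kept 3600 WT and 2915 KO cells, 4 of 27 pairs of member and class passed, and with cells thinned to 2000 UMIs 6 of 28 did, against 13 of 40. The share of all pairs of gene and class was not computed under these settings. Thinning also left 3 of 7 members with the same highest class in both libraries and 0 members 2-fold higher in WT cells with a Pdgfrb UMI. In all, 53 of 57 counts of members stayed within 1.5 times, a tally that includes those the count minimums could not change. Of 212 values of single members 146 stayed within the interval of counting error. No paired analysis was possible because each genotype had 1 library. The fewest UMIs of a member in a library were the 203 of Tbx15 in WT.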

Other observations

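The members were sparse in single cells. The most UMIs of a member in 1 cell were 52 in WT and 53 in KO, both of Tbx3, and in cells with a UMI the mean was 3.30 and 3.36 for Tbx3 but 1.59 and 1.69 for Tbx15. At 2000 UMIs per cell, 7.10% of WT and 7.79% of KO body wall cells held UMIs of at least 2 members, against 0.48% and 0.47% in sclerotome. Erythroid cells held 0% and 0.46%. Neuronal cells held 7.14% and 4.72%. Barcodes of at least 500 and under 2000 UMIs, which were not used, held Tbx15 at 0.768 CPM in WT against 4.31 CPM in KO and Tbx20 at 6.58 and 1.82 CPM.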
